A study of Homo sapiens with 2 samples.

Results

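Transcripts of 10 hypoxia target genes that do not encode glycolytic enzymes were read out in PLC cells with and without PRSS35. They were CA9 and CA12, VEGFA, ADM and ANGPTL4, NDRG1, BNIP3 and BNIP3L, and EGLN3 and P4HA1. PLC is an established human liver cancer cell line, and PRSS35 is a secreted protease of the trypsin-like serine protease family. One library came from PLC cells carrying the pCDH empty vector (EV), labelled as wild type. The other came from PLC cells stably expressing human PRSS35 from the same vector, labelled as PRSS35 over-expression. Both lines were grown in DMEM with 25 mM glucose, 4 mM glutamine, 1 mM pyruvate and 10% FBS, and the labels list no treatment for either. The 10 genes were picked by name as known hypoxia targets and found among 26254 gene names present in both libraries, each at a single locus of its own. They were selected on earlier readings of the same 2 libraries, in which hypoxia genes such as CA9 and NDRG1 had higher values with PRSS35, so all changes below are descriptions. With 1 library per condition, the spread between cultures is unknown, so no p-value could be formed, and PRSS35 and the culture dish cannot be told apart.

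Cells answer low oxygen through the hypoxia-inducible factors (HIFs). When oxygen is ample, prolyl hydroxylases mark the HIF alpha subunits, and the VHL ubiquitin ligase then sends them to the proteasome. When oxygen falls, the alpha subunits persist, pair with ARNT and bind short DNA elements with the core ACGTG or GCGTG. The genes they switch on cover glucose use, pH control, vessel growth, lipid handling, removal of mitochondria and matrix synthesis. In liver cancer, CA9 and VEGFA are among the targets best known from tumour tissue.

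The letters around the HIF core are shown first, because these genes are grouped by their response to one family of factors. RefSeq promoters, 250 bases before to 50 after the annotated start on GRCh38.p14, were at hand for 7 of the 10 genes, and VEGFA, NDRG1 and BNIP3L were not among them. ACGTG or its reverse complement CACGT was present in 4 of the 7, against 21.4% of 35116 RefSeq promoters. GCGTG or CACGC was present in 3 of the 7 (CA12, ADM and BNIP3), against 36.5% of all promoters, and EGLN3 had neither. The 4 stretches before the start that hold ACGTG follow, 5′ to 3′ on the strand of the gene, with the match in capitals. They lie at chr9:35673880-35673927 (plus strand, CA9), chr19:8363905-8363955 (plus strand, ANGPTL4), chr10:131982022-131982087 (minus strand, BNIP3) and chr10:73096918-73096982 (minus strand, P4HA1) of GRCh38.p14, a later build than the hg19 of the expression values.
CA9: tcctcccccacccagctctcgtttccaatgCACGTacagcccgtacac
ANGPTL4: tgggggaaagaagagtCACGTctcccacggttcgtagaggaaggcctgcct
BNIP3: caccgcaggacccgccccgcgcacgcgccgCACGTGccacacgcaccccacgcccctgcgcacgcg
P4HA1: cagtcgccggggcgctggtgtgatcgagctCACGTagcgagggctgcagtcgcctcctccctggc
The CA9 match begins at position -18 from the annotated start, the P4HA1 match at -86, the BNIP3 match at -134 and the ANGPTL4 match at -234. In BNIP3 2 matches overlap, and the core reads the same on both strands, as CACGTG, which is also the letters of an E-box. A match is a run of letters and was not tested for binding of any factor.

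Levels are given as FPKM, fragments scaled to transcript length and to the number of mapped fragments, with the lower and upper bound that Cufflinks put around each value in brackets. These bounds cover error within a library and leave out the variation between cultures. In EV cells the genes ranked CA9, BNIP3, NDRG1, VEGFA, ADM, P4HA1, BNIP3L, CA12 and EGLN3 from high to low, with ANGPTL4 listed at 0. Among neighbours above 0 in this order, only VEGFA and ADM had overlapping intervals. In PRSS35 cells the order was CA9, ANGPTL4, NDRG1, BNIP3, ADM, VEGFA, P4HA1, BNIP3L, CA12 and EGLN3, and only the intervals of CA12 and EGLN3 overlapped. NDRG1 thus stood below BNIP3 in EV and above it in PRSS35, and ADM stood below VEGFA in EV and above it in PRSS35. The 2 lowest genes, CA12 and EGLN3, were below 1 FPKM in both libraries and 8 genes had an average of 1 FPKM or more, ANGPTL4 through its PRSS35 value alone.

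**Figure D1:**
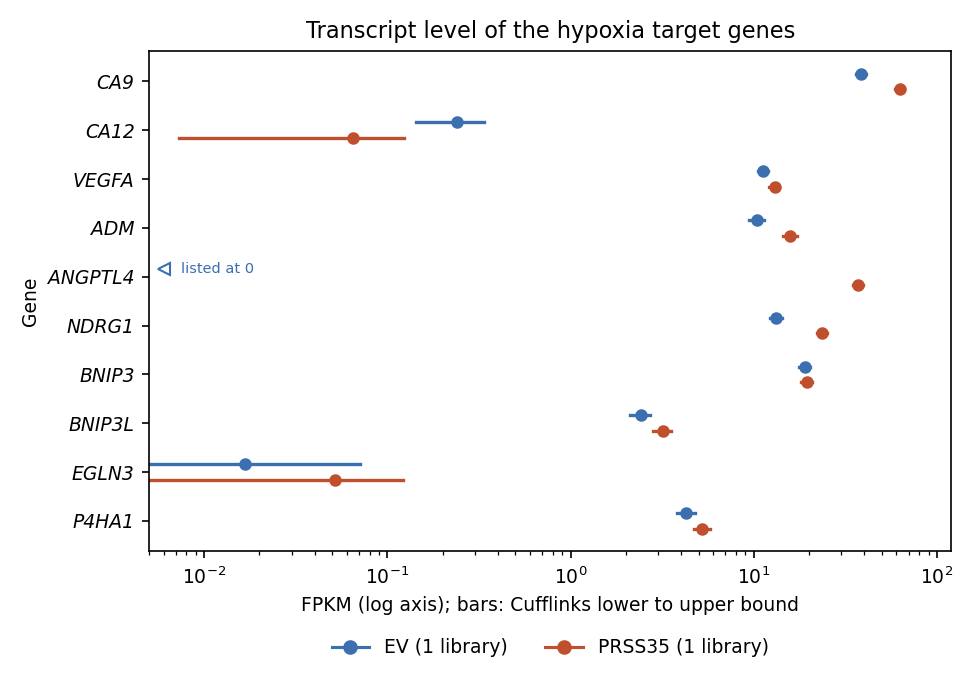
FPKM of each gene (log axis) in the EV library (blue) and the PRSS35 library (red), with bars from the Cufflinks lower to upper bound, 1 library each. CA9 is highest in both libraries at 38.7 and 62.7 FPKM, CA12 is lower with PRSS35, ANGPTL4 is listed at 0 in EV (open triangle), and the lower bounds of EGLN3 are 0 and run off the axis.

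CA9 and CA12 encode membrane carbonic anhydrases with their active site outside the cell, which help tumour cells to keep pH in balance. CA9 (hg19 chromosome 9, 35673915 to 35681154) stood at 38.7 FPKM in EV (36.2 to 41.2) and at 62.7 FPKM in PRSS35 (59.1 to 66.3). The intervals did not overlap, and the ratio was 1.62 (interval 1.49 to 1.77, from both libraries' bounds). Its log2 change on the scale used for all genes, log2((FPKM in PRSS35 + 1) / (FPKM in EV + 1)), was 0.68, above that of 95.9% of the 11115 genes averaging 1 FPKM or more. CA12 (chromosome 15, 63615730 to 63674309) went the other way. It stood at 0.239 FPKM in EV (0.144 to 0.335) and at 0.0651 FPKM in PRSS35 (0.00728 to 0.123), and these intervals did not overlap either. The bounds correspond to about 25.2 and 5.07 fragments, so the ratio of 0.272 has a wide interval, from 0.103 to 0.720. The intervals of CA12 overlapped when each FPKM was divided by its library sum. In bulk RNA, fewer cells that use a gene and less RNA of it per cell cannot be told apart. In EV cells CA9 had 162 times the FPKM of CA12.

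VEGFA and ADM encode secreted signals, the main growth factor for blood vessels and the vasodilator peptide adrenomedullin. VEGFA (chromosome 6, 43737946 to 43754223) stood at 11.3 FPKM in EV (10.5 to 12.0) and at 13.0 FPKM in PRSS35 (12.1 to 13.8). The intervals were separate by a narrow margin, with a ratio of 1.15 (interval 1.05 to 1.27). They overlapped once values were centred on the median change of all genes or scaled to the upper quartile. ADM (chromosome 11, 10326527 to 10328949) stood at 10.4 FPKM in EV (9.42 to 11.4) and at 15.8 FPKM in PRSS35 (14.4 to 17.2). Its ratio was 1.51 (interval 1.33 to 1.73) and its log2 change 0.56, just under the 1.5-fold mark on the scale with the added 1 FPKM.

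ANGPTL4 (chromosome 19, 8429011 to 8439259) encodes a secreted inhibitor of lipoprotein lipase and was second only to CA9 among these genes in PRSS35 cells. Its FPKM there was 37.3 (interval 35 to 39.6), with bounds that correspond to about 1039 fragments. In EV it is listed at 0 with both bounds at 0, at a locus that Cufflinks had assembled from the reads, whereas the PRSS35 locus kept its annotated structure. No other locus of the EV table overlapped it. Genes that all cells use were also listed at 0, such as NDUFB10, a subunit of respiratory complex I, at 0 in EV and 537 FPKM in PRSS35. Among genes with loci of their own, 42 were at 0 in EV with at least 5 FPKM in PRSS35, and for 47 genes the zero was in PRSS35. Of the 42, 35 were assembled in EV, and 3, ANGPTL4 among them, were assembled in EV and annotated in PRSS35. For comparison, 10900 genes averaged 1 FPKM or more and were above 0 in both libraries. Of these, 6373 were assembled in both libraries and 1047 in EV only. No fold change is given for ANGPTL4.

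NDRG1, BNIP3 and BNIP3L act in stressed cells. NDRG1 is a cytoplasmic stress-responsive protein, and BNIP3 and BNIP3L (also called NIX) are paralogous outer mitochondrial membrane proteins that act as receptors for mitophagy. NDRG1 (chromosome 8, 134249414 to 134309547) stood at 13.3 FPKM in EV (12.3 to 14.2) and at 23.6 FPKM in PRSS35 (22.1 to 25.0). Its ratio of 1.78 (interval 1.62 to 1.95) was the highest of the 8 genes for which a ratio with an interval could be formed, and its log2 change of 0.79 was above that of 96.5% of genes. BNIP3 (chromosome 10, 133781187 to 133795517) stood at 19 FPKM in EV (17.7 to 20.3) and at 19.5 FPKM in PRSS35 (18.2 to 20.9). These intervals overlapped almost fully, the ratio of 1.03 had an interval from 0.931 to 1.14, and the log2 change of 0.04 became -0.02 when centred on the median gene and -0.03 with upper quartile scaling. BNIP3L (chromosome 8, 26240523 to 26270644) stood at 2.42 FPKM in EV (2.1 to 2.73) and at 3.18 FPKM in PRSS35 (2.82 to 3.54), a ratio of 1.32 (interval 1.11 to 1.56). Its intervals did not overlap as deposited and overlapped after centring or upper quartile scaling. The FPKM of BNIP3 was 7.87 times that of BNIP3L in EV and 6.14 times in PRSS35.

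EGLN3 and P4HA1 encode oxygen-dependent prolyl hydroxylases. EGLN3 (also called PHD3) acts on HIF alpha subunits and so closes a feedback loop, and P4HA1 is a catalytic subunit of the enzyme that hydroxylates collagen. P4HA1 (chromosome 10, 74766980 to 74856732) stood at 4.27 FPKM in EV (3.79 to 4.75) and at 5.24 FPKM in PRSS35 (4.71 to 5.77). The intervals overlapped slightly, while that of the ratio, 1.23, ran from 1.06 to 1.43. EGLN3 (chromosome 14, 34393421 to 34420284) was close to undetected. It stood at 0.0166 FPKM in EV (0 to 0.0709) and at 0.0519 FPKM in PRSS35 (0 to 0.121), with bounds that correspond to 0.375 and 2.23 fragments. Both are under the 3 fragments that a count of 0 allows, so a change in EGLN3 was not detectable at this depth.

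**Figure D2:**
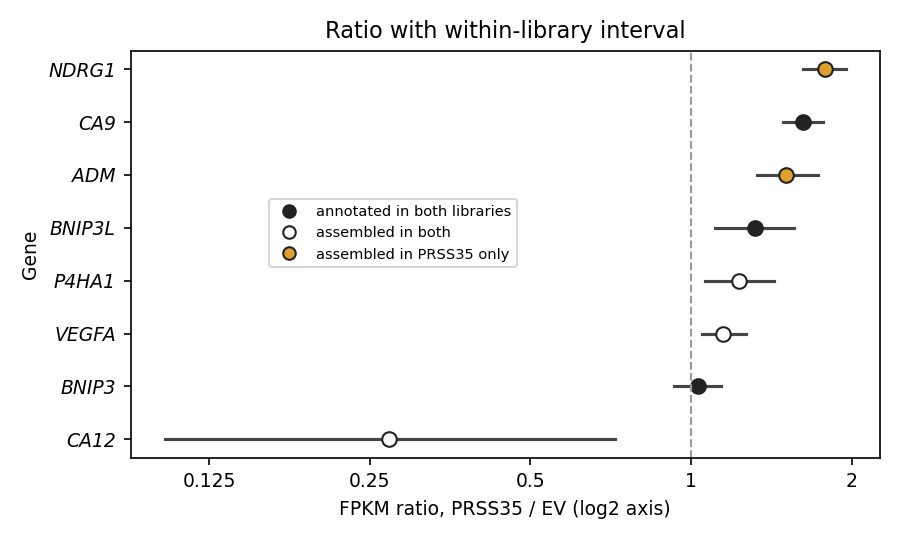
FPKM ratio of PRSS35 to EV (log2 axis) for the 8 genes whose bounds are above 0 in both libraries, with lines for the interval propagated from the bounds of both libraries. Filled black points kept the annotated locus in both libraries, white points were assembled in both and orange points in PRSS35 only. NDRG1 is highest at 1.78, BNIP3 sits at 1.03 and CA12 is lowest at 0.272 with the widest line.

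Counted over all 10 genes, 6 were higher in PRSS35 with separate intervals (CA9, VEGFA, ADM, ANGPTL4, NDRG1 and BNIP3L), against 25.1% of the 11115 genes averaging 1 FPKM or more. CA12 alone was lower with separate intervals, against 15.5% of these genes. As CA12 averaged under 1 FPKM, it is not one of them, and without the filter on low values the share was 7.47%. Without ANGPTL4 the higher genes were 5 of 9, against 24.7% of genes averaging 1 FPKM or more and above 0 in both libraries. CA12 and EGLN3, among the 9, are below that level. At 1.5-fold on the log2 scale above, CA9, NDRG1 and ANGPTL4 were higher, 3 of 10 against 5.23% of genes. At 2-fold only ANGPTL4 was higher, through its 0 in EV, against 2.73% of genes. None of the 10 was lower at 1.5-fold on that scale, which compresses the change of a gene as low as CA12. The median log2 change was 0.27 for the 10 genes and 0.24 without ANGPTL4, when that of all genes was 0.06. As the genes were chosen with this contrast known, these shares are not evidence about them.

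The locus structure differed between the libraries for some of these genes. Each library had its own loci, some kept as annotated and some assembled from reads. CA9, BNIP3, BNIP3L and EGLN3 kept the annotated locus in both libraries, and CA12, VEGFA and P4HA1 were assembled in both. ADM and NDRG1 were assembled in PRSS35 only, the library in which both were higher. The background here was genes averaging 1 FPKM or more and above 0 in both libraries. Separate and higher intervals in PRSS35 were seen for 37.9% of those assembled in PRSS35 only and for 23.3% of those annotated in both. The part of assembly in the values of ADM and NDRG1 was not tested. Of the 4 genes annotated in both libraries, CA9 and BNIP3L had separate and higher intervals, and the BNIP3 and EGLN3 intervals overlapped.

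The wider HIF programme was read through lists that leave the 10 genes out. The lists were drawn up with earlier results of these libraries known. Of 36 other non-glycolytic HIF targets, 28 had an average of 1 FPKM or more, and 25 of these had a log2 change above 0, against 60.2% of all genes. Intervals were separate for 17 of the 28, all of them higher in PRSS35, when 25.1% of all genes were higher and 15.5% lower, and the median log2 change was 0.32. DDIT4, a brake on mTORC1 signalling, had the highest change of the list, at 127 FPKM in EV (124 to 130) and 241 FPKM in PRSS35 (236 to 246). TF, the iron carrier transferrin and the most abundant transcript of the list, stood at 224 FPKM in EV and at 348 FPKM in PRSS35. For TF the bounds correspond to similar numbers, about 2072 fragments in EV and 2165 in PRSS35, at a locus assembled in both libraries. The part of assembly in the values of TF was not tested. HMOX1, which breaks down heme, had the lowest change, at 103 FPKM in EV (99.7 to 106) and 97.8 FPKM in PRSS35 (92.7 to 103). Of the 13 genes of this list that kept the annotated locus in both libraries, 12 had separate and higher intervals, against 23.3% of all such genes. The median log2 change of the 13 was 0.46, against 0.08 for all such genes. After centring on the median of all genes, 16 of the 28 were higher and 1 was lower with separate intervals, against 18.8% and 20.3% of all genes. With each value taken as a share of its library's FPKM sum, which lifts the median change of all genes from 0.06 to 0.67, all 28 were higher, as were 87.0% of all genes.

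Glycolytic HIF targets were read in the same way. Of 21 listed genes 19 were compared, 8 were higher and 2 were lower with separate intervals, against 25.1% and 15.5% of all genes. Their median log2 change was 0.14. After centring 6 were higher and 2 lower, against 18.8% and 20.3% of all genes, with a median of 0.07. With FPKM divided by its sum 16 were higher and 2 lower, with a median of 0.83. On that scaling 87.0% of all genes were higher and 2.41% lower, with a median of 0.67. PGK1, a glycolytic kinase, had the highest change with a log2 value of 0.83. PDK1, which holds back pyruvate entry into the citric acid cycle, had the lowest with -1.50. It stood at 9.02 FPKM in EV and at 2.54 FPKM in PRSS35. Its bounds correspond to about 71.7 fragments in EV and to more, about 219, in PRSS35, at a locus assembled in both libraries. The part of assembly in the values of PDK1 was not tested. GAPDH, the most abundant, stood at 8515 FPKM in EV (8162 to 8867) and at 8670 FPKM in PRSS35 (8311 to 9029). ALDOA, the next most abundant, stood at 2995 FPKM in EV (2871 to 3120). In PRSS35 it was at 2848 FPKM, with bounds from 0 to 41636 that leave its change unread. The difference between the glycolytic and the non-glycolytic lists was not tested.

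The oxygen sensing machinery decides whether HIF alpha subunits are kept. Of 13 listed genes 10 were compared, 2 were higher and 1 was lower with separate intervals, against 25.1% and 15.5% of all genes. Their median log2 change was 0.08. After centring the counts were again 2 and 1, against 18.8% and 20.3% of all genes, with a median of 0.01. With FPKM divided by its sum 10 were higher and 0 lower, with a median of 0.72. On that scaling 87.0% of all genes were higher and 2.41% lower, with a median of 0.67. VHL, which recognises hydroxylated HIF alpha, stood at 6.92 FPKM in EV (6.39 to 7.44) and at 9.07 FPKM in PRSS35 (8.45 to 9.68). TCEB2, the elongin B partner of VHL, stood at 766 FPKM in EV and at 651 FPKM in PRSS35, a log2 change of -0.23. Of the HIF alpha subunits, named here after their values were seen, HIF1A stood at 4.70 FPKM in EV (4.25 to 5.15) and at 5.04 FPKM in PRSS35 (4.57 to 5.50). EPAS1, which encodes HIF-2 alpha, was more abundant, at 52.0 FPKM in EV (49.8 to 54.2) and 54.5 FPKM in PRSS35 (52.0 to 57.1). The intervals of both subunits overlapped between the libraries. Both are regulated mainly as proteins, which these libraries do not measure.

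Receptors for the secreted signals were read from a list of their own. Of 13 receptors, co-receptors and related ligands of VEGFA and ADM, 5 were listed at 0 in both libraries, among them KDR and FLT1, the main VEGFA receptors, and CALCRL, the ADM receptor. A 0 in these files can also be a failed estimate, as for NDUFB10 above. The 3 receptors, and PGF below, were named after their values were seen. The 5 genes averaging 1 FPKM or more (VEGFB, ADM2, NRP1, PGF and NRP2) had log2 changes below 0, when 60.2% of all genes were above 0. Their median was -0.14, which became -0.20 after centring but 0.40 when FPKM was divided by its sum. On that last scaling the median of all genes was 0.67. NRP1, a co-receptor for VEGFA, stood at 9.50 FPKM in EV (8.82 to 10.2) and at 7.89 FPKM in PRSS35 (7.40 to 8.38). Its bounds correspond to about 784 fragments in EV and to more, about 1034, in PRSS35, at a locus assembled in both libraries. The part of assembly in the values of NRP1 was not tested. VEGFB stood at 124 FPKM in EV (118 to 129) and at 113 FPKM in PRSS35 (108 to 118).

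Close relatives of the 10 genes were read as well. Of 13 other carbonic anhydrases, CA2 and CA11 had an average of 1 FPKM or more, and 5 were listed at 0 in both libraries. CA2, a cytosolic enzyme, stood at 35.7 FPKM in EV (33.4 to 38.1) and at 37.9 FPKM in PRSS35 (35.4 to 40.3), close to CA9 in EV and well under it in PRSS35. CA11 stood at 6.56 FPKM in EV (5.72 to 7.40) and at 8.45 FPKM in PRSS35 (7.49 to 9.41). Of 7 compared paralogs and partners of the remaining genes, 3 were higher and 2 were lower with separate intervals, against 25.1% and 15.5% of all genes. NDRG3 stood at 14.3 FPKM in EV (13.2 to 15.3) and at 19.3 FPKM in PRSS35 (18.1 to 20.5). NDRG4 went the other way, with 3.31 FPKM in EV (2.42 to 4.19) and 0.937 FPKM in PRSS35 (0.685 to 1.19). For NDRG4 these bounds correspond to nearly equal numbers, about 56.0 fragments in EV and 55.2 in PRSS35, at a locus assembled in both libraries. The part of assembly in the values of NDRG4 was not tested. P4HB, the partner subunit of P4HA1, stood at 436 FPKM in EV (417 to 454) and at 515 FPKM in PRSS35 (493 to 537), whereas the intervals of P4HA2, at 19.9 and 21.8, overlapped. For P4HB the bounds correspond to similar numbers, about 2187 fragments in EV and 2211 in PRSS35, at a locus assembled in both libraries. The part of assembly in the values of P4HB was not tested. Of 10 compared mitophagy genes beside BNIP3 and BNIP3L, 3 were higher and 2 were lower by the same measure, with a median log2 change of 0.07. GABARAPL2, of the autophagosome protein family, stood at 45 FPKM in EV (42.2 to 47.8) and at 61.4 FPKM in PRSS35 (58.1 to 64.7). FKBP8, an outer mitochondrial membrane protein, stood at 768 FPKM in EV and at 670 FPKM in PRSS35, a log2 change of -0.20.

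**Figure D3:**
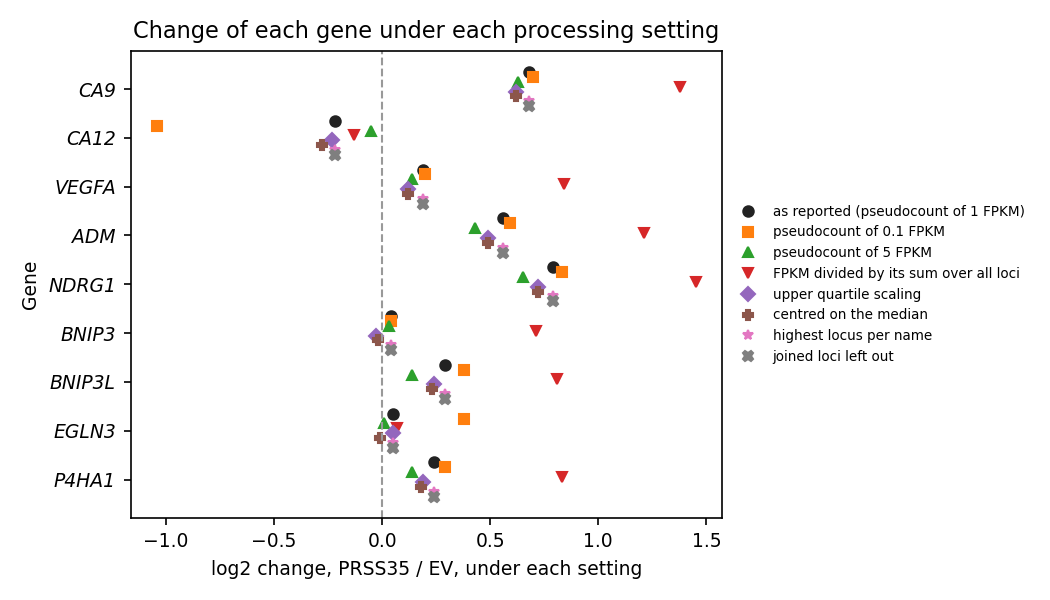
log2 change of 9 of the 10 genes (ANGPTL4 has none) under each processing setting. CA9, ADM and NDRG1 are at 0.43 or above in all settings shown and CA12 is below 0 in all. BNIP3 and EGLN3 turn negative under centring, at -0.02 and -0.01, while EGLN3 reaches 0.38 with a pseudocount of 0.1 FPKM and BNIP3 0.71 when FPKM is divided by its sum (red triangles), a scaling that moves CA9 to 1.38 and NDRG1 to 1.45.

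The libraries matched their labels for the introduced gene, as PRSS35 stood at 0.643 FPKM in EV (0.445 to 0.841) and at 1836 FPKM in PRSS35 (1759 to 1912). Of 12 hepatocyte markers, 11 averaged 1 FPKM or more. Of these, 5 were higher and 3 lower with separate intervals, against 25.1% and 15.5% of all genes. The most abundant were SERPINA1 at 2528 and 4239 FPKM and KRT18 at 2781 and 2315 FPKM in EV and PRSS35. Among the markers below, those named were chosen after their values were seen. The hepatocyte marker FGB was under 1 FPKM in both libraries. Low values were also seen for ALB, at 4.05 and 5.21 FPKM, and TTR, at 1.56 and 1.61 FPKM in EV and PRSS35. The 6 endothelial markers reached at most 0.140 FPKM (CLDN5), with KDR and TEK at 0 in both. Of 6 fibroblast markers, DCN, LUM and COL3A1 were at 0 in both, and PDGFRB was highest at 1.02 and 1.27 FPKM. Of 6 leukocyte markers, PTPRC and CD3E were at 0 in both, and CD68, at a locus joined with neighbouring genes, stood at 297 and 278 FPKM.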

How the data were processed

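Total RNA of 2 PLC cell lines was read by the authors with a HiSeq2500, in 1 library per condition. Per the submitters' processing notes and the study's methods, reads were aligned to hg19 with TopHat2 2.1.0 and quantified with Cufflinks 2.2.1, and the annotation release is not given in the sources used here. The deposited values are FPKM per locus with lower and upper bounds. No read counts were used, and no model was fitted. Loci inside joined names were included, values of loci that share a name were summed, and 1 locus per library with status FAIL was left out. Genes averaging 1 FPKM or more formed the background, and lists were compared at loci not joined in either library and above 0 in both.

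For each change 1 FPKM was added to both values, and genes were counted at 1.5-fold, at 2-fold, or where the bounds were separate. Fragment numbers come from the upper bound, read as 2 SD of a Poisson count. They are not read counts, and for some abundant genes they barely differ with level. In EV they were 2334 for GAPDH at 8515 FPKM and 2262 for TPI1 at 1772 FPKM. For ALDOA in PRSS35 the bounds ran from 0 to 41636 FPKM, so a bound can also fail. Ratio intervals combined both relative half-widths in quadrature on the log scale. PCR duplicates are not independent molecules, so intervals cover counting and assignment error only. Alternatives changed the added value, the scaling, the filter on low values and the treatment of loci. Genes named from the lists are those with the highest and lowest change and the 2 highest levels, and others are marked as named after their values were seen. RBX1, PHB2 and APOA2 also met this rule and are not described. The 10 genes and all lists were chosen with earlier results of these data known. Python 3.11.15, numpy 2.4.6, pandas 2.3.3 and matplotlib 3.10.9 were used.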

Additional observations from a re-analysis of the deposited data

How the results depend on the processing

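With 1 library per condition, a difference between EV and PRSS35 cannot be told apart from one between 2 cultures, and no paired analysis was possible because no replicates exist. There were 7 alternatives (pseudocounts of 0.1 and 5 FPKM, 3 scalings, the highest locus per name, joined loci left out). Over these, 54 of 63 log2 changes of single genes were counted as staying and 9 as moved, by the interval of each gene. Taking the highest locus per name and leaving out joined loci could not move these genes, as each has a single locus of its own. Their values there stayed by construction. CA12 was counted as staying although it went from -0.22 to -1.04 with a pseudocount of 0.1 FPKM, because its interval is wide. EGLN3 has no such interval, and its shifts to 0.38 with a pseudocount of 0.1 FPKM and to -0.01 after centring are among the 9. Of the 9, 7 came with FPKM divided by its sum. With that scaling the median change of the 10 genes was 0.84 and that of all genes 0.67, 8 genes were higher at 1.5-fold and 4 at 2-fold (63.5% and 11.2% of all genes), 8 were higher with separate intervals (87.0% of all genes), and 0 were lower. The sums differ by 0.71 on the log2 scale. With upper quartile scaling or centring, 4 genes were higher with separate intervals (CA9, ADM, ANGPTL4 and NDRG1), against 18.3% and 18.8% of all genes, and CA12 was lower, against 20.9% and 20.3%, so that over all genes more were lower than higher. CA12 averaged under 1 FPKM and so lies outside that background. With a mean of at least 5 FPKM, 6 genes were left, with a median of 0.62 and 0 lower (19.4% of all genes), since CA12 is removed. With the 4 genes annotated in both libraries, 1 was higher at 1.5-fold, 0 at 2-fold, 2 were higher and 0 lower with separate intervals, against 1.6%, 0.714%, 23.5% and 6.80% of all such genes. Restricting to genes above 0 in both libraries, added after seeing the data, left 0 at 2-fold, against 1.84% of such genes averaging 1 FPKM or more. With a pseudocount of 0.1 FPKM the median was 0.38, with 5 FPKM it was 0.14. Depth limited CA12 and EGLN3.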
